A study of Mus musculus with 2 samples.

Results

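CD4 T cells of the liver were compared between mouse genotypes captured in the same single-cell library. The library pooled CD45+ liver cells of P40-/-IL-2Ra-/- mice, which lack p40 and IL-2Rα, and of wild type (WT) mice, all C57BL/6 and given as 10 weeks old in the labels. Cells were taken as CD4 T when they held at least 1 unique transcript molecule (UMI) each of Cd4 and Cd3e and no UMI of Cd8a, Cd8b1, Klrb1c or Cd79a. They were then split by the deposited cell table, which names WT cells and names no other cell of this library. The rule took 2239 of 24111 cells in the library, out of 34137 in the series. Of these, 507 carried the WT name and 1732 carried no name. The unnamed cells are mostly of the knockout mice, but they may include WT cells that the authors' filter removed, and sample tag calls were not used here. All cells came from 1 capture, so genotypes were read side by side without a capture batch between them. Differences between mice and in steps before pooling, such as sample tagging, cannot be told apart from genotype. Named WT cells had passed the authors' filter, while unnamed cells were taken without one. There is no replicate and no test was made. How many mice stood behind each genotype is not given in the sources used here.

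CD4 T cells leave the thymus as naive cells that recirculate through lymph nodes, and antigen turns them into effector, memory, follicular helper or regulatory cells. Regulatory T cells carry the transcription factor Foxp3 and a high level of IL-2Rα (CD25, gene Il2ra), the chain that gives the IL-2 receptor its high affinity and signals with its partners through STAT5. Mice without this chain develop spontaneous T cell activation and autoimmunity. The p40 chain (gene Il12b) is shared by IL-12, which drives interferon-γ producing Th1 cells, and IL-23, which sustains Th17 cells, and it is made by myeloid cells rather than by T cells.

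CD4 T cells made up 10.3% of unnamed cells (9.84% to 10.8%) and 6.96% of WT cells (6.39% to 7.57%). Their summed counts held 5406106 UMIs in the unnamed set and 1507271 in the WT set. Depth was alike, with a median of 2478.5 UMIs per unnamed cell and 2618 per WT cell, and of 1302 and 1299 genes. Mitochondrial transcripts made up a median of 4.88% and 6.42% of UMIs, and antibody totals a median of 1034.5 and 1641 counts. Levels are given as counts per 1000000 summed UMIs (CPM) and differences as the log2 ratio of unnamed over WT. All intervals are exact 95% intervals, Poisson for CPM, conditional binomial for ratios and Clopper-Pearson for shares of cells. Only counting error enters them, not the spread between cells and mice. The same index numbers occurred in both libraries of the series for 267 cells, among them 23 unnamed and 9 WT members, and leaving these out turned the sign of no list median given below.

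The values that chose the members are a description. In both sets the median member held 2 Cd4 and 3 Cd3e UMIs. Members at the edge of the rule, with exactly 1 Cd4 UMI, were 479 of the unnamed and 231 of the WT cells. Just outside it, 348 unnamed and 198 WT cells with both Cd4 and Cd3e were left out for a single UMI of the other lineage genes, and 1039 and 582 for more than 1. In the deposited cell table the WT members were named CD4 T in 311 cases (61.3%), NKT in 130 (25.6%), CD8αβ T in 44 (8.68%) and otherwise in 22 (4.34%). The rule in turn took 42.4% of the 734 WT cells of this library with the CD4 T name. No such names exist for the unnamed cells, so each named gene past 1.5-fold that changed sign when the WT side was limited to the 311 named CD4 T cells is given with that value. The study gave these names from surface protein and transcript profiles. The limit thus removes WT cells by their expression while all unnamed cells stay in, so the 2 sides are not chosen alike.

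Markers that the rule did not use went with the label. Trac, the constant region of the T cell receptor α chain, stood at 2190 CPM in unnamed and 1662 CPM in WT members, while B cells had 87.3 and 76.1 CPM. Cd3d stood at 734.4 and 659.5 CPM, Cd28 at 439.3 and 319.1 CPM and Cd5 at 285.6 and 194.4 CPM. The CD4 antibody, a measure of the protein, gave a median of 105.5 counts per unnamed cell (quartiles 41 and 219) and 154 per WT cell (77 and 258.5), against 7 and 5 in CD8 T cells and 4 and 3 in B cells. It was above the 95th percentile of B cells in 89.6% of unnamed and 94.9% of WT members. The CD8β antibody gave a median of 5 and 4 counts, against 43 and 35 in CD8 T cells, and also 41 and 29 in B cells. NK1.1 antibody was above the 95th percentile of B cells in 11.4% of unnamed and 6.11% of WT members. Most members of both sets thus carried CD4 protein and little CD8β.

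**Figure D1:**
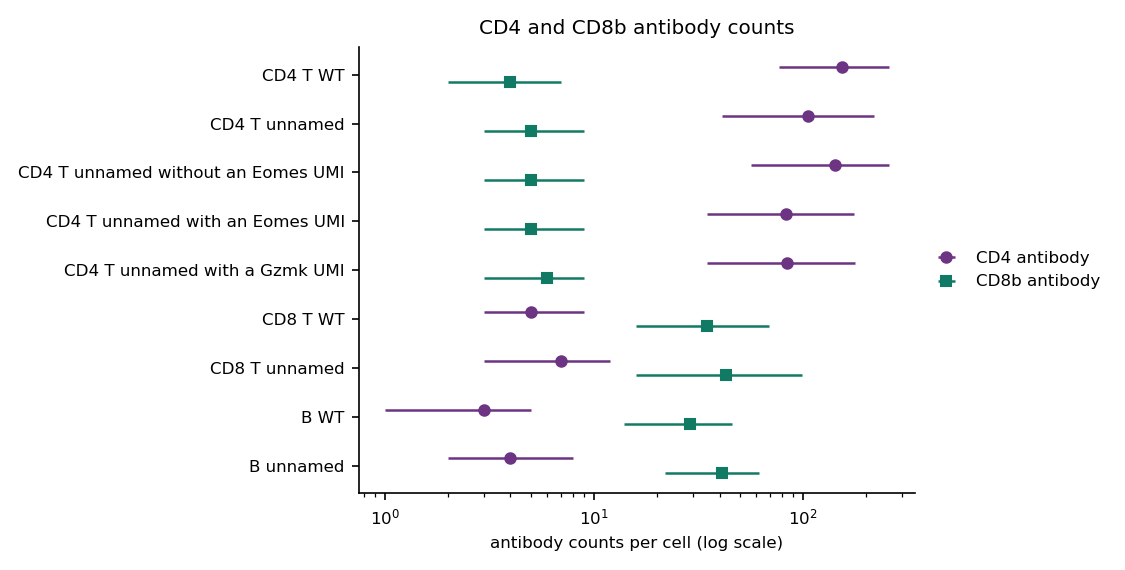
Counts per cell of the CD4 and CD8β antibodies on a log axis, as medians (points) with quartiles (bars), in CD4 T, CD8 T and B cells of the second library, and in unnamed CD4 T cells split by an Eomes or a Gzmk UMI. CD4 antibody sits at 83 counts or above in every CD4 T set and at 7 or below in every other set.

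The genes of the knockout were looked at first. Il2ra had 64 UMIs in 33 of 1732 unnamed cells and 104 UMIs in 56 of 507 WT cells, which is 11.8 CPM against 69.0 CPM and a ratio of -2.54 (-3.02 to -2.08) on the log2 scale. The ratio was -1.84 against named WT CD4 T cells, -3.50 from thinned counts and -3.44 with equal weight for each cell. It was lower in unnamed cells but not at 0. After thinning every cell to 1000 UMIs, 0.635% of unnamed and 4.54% of WT cells held an Il2ra UMI, against 0.283% and 0.0684% of B cells. CD25 antibody had a median of 2 counts in both sets, of 2 in unnamed and 4 in WT cells with a Foxp3 UMI, and of 9 and 10 counts in unnamed and WT B cells. As a share of all antibody counts it had a log2 ratio of 0.28. Its median natural-log ratio, centred over the antibodies of each cell, was 0.317 in unnamed and 0.324 in WT cells. Its count was above the 95th percentile of B cells in 5 unnamed cells (0.289%) and 6 WT cells (1.18%). Il12b had 19 UMIs in 19 unnamed cells (3.51 CPM) and none in WT cells, where the level that a count of 0 allows is 1.99 CPM. Which part of each gene was deleted is not given in the sources used here, and a transcript tag outside it would not show the deletion.

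Promoter sequence is shown for 3 genes: Eomes and Gzmk, which led the ranked ratios described next, and the targeted gene Il2ra. Each is the 250 bases before the RefSeq gene start in GRCm38.p6, 5′ to 3′ on the strand of the gene, at chr9:118477939-118478188 (plus strand), chr13:113180966-113181215 (minus strand) and chr2:11642542-11642791 (plus strand). The RefSeq start of Gzmk lies inside the longer GENCODE span given below, so its window is upstream of the shorter transcripts only. Capitals mark a T-box motif (TCACACC or GGTGTGA), the kind of site that Eomes and its relative T-bet bind.
Eomes: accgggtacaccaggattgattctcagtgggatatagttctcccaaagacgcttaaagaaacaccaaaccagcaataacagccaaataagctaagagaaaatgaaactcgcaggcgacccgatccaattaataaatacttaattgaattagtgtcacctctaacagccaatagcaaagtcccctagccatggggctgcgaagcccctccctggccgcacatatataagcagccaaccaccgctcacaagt
Gzmk: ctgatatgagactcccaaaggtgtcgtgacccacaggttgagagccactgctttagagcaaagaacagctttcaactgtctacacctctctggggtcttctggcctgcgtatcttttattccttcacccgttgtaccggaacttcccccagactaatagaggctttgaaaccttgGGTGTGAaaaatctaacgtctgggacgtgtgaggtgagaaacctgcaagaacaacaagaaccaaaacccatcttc
Il2ra: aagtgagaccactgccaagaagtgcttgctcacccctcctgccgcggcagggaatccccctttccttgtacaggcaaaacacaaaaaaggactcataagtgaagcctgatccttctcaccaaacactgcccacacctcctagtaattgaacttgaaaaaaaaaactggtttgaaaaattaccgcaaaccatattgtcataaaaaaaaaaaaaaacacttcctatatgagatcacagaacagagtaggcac
The window of Gzmk held 1 T-box motif and those of Eomes and Il2ra held 0, where 3.33% of 32851 promoters of this length held at least 1. None of the 3 held the STAT motif TTCNNNGAA, which 7.02% of all promoters held. Both strands were searched. These are matches of letters, not sites shown to be bound.

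Among 7269 genes with at least 100 UMIs over both sets, 781 (10.7%) were higher in unnamed cells by more than 1.5-fold and 430 (5.92%) were lower. The 12 highest ratios were led by genes of cytotoxic effector cells. Gzmk, a granule protease on chromosome 13 (GRCm38, 113171608 to 113225908, minus strand), had 3489 UMIs in 1070 unnamed cells and 30 UMIs in 24 WT cells. That is 645.4 CPM against 19.9 CPM, a log2 ratio of 5.02 (4.50 to 5.59). Eomes, a T-box factor of cytotoxic and memory cells (chromosome 9, 118478212 to 118486132, plus strand), had 2332 UMIs in 910 unnamed cells and 27 UMIs in 16 WT cells, a log2 ratio of 4.59 (4.05 to 5.19). Of the 27 WT UMIs, 48.1% lay in 3 cells. The chemokine genes Ccl3 (3.21), Ccl5 (3.10) and Ccl4 (3.06), whose products draw other immune cells, followed, with the inhibitory receptor genes Lag3 (3.17), Pdcd1 (2.99) and Havcr2 (2.82). Baiap3 (3.12), the G protein regulator Rgs16 (3.06) and the calcium sensor Ncald (2.87) were also in this group. Ltf (4.26), a granule gene of neutrophils, had its 825 unnamed UMIs in 42 cells and turned to -0.54 without cells that held neutrophil transcripts.

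The 12 lowest ratios of the same ranking included genes of naive T cells. Igfbp4, on chromosome 11 (99041244 to 99054392, plus strand), had 76 UMIs in 30 unnamed cells and 478 UMIs in 114 WT cells, or 14.1 CPM against 317.1 CPM, a log2 ratio of -4.50 (-4.86 to -4.14). Dapl1 stood at -4.04, the chromatin organiser Satb1 at -2.43 (82.1 against 442.5 CPM) and Bach2, a repressor that keeps T cells quiescent, at -2.29. Ly6c1 (-4.16), which shares sequence with its close relative Ly6c2, was at 5.73 and 102.8 CPM. Socs2, a STAT5 target that restrains cytokine signals, had 27 UMIs in unnamed and 113 in WT cells, a log2 ratio of -3.91 (-4.57 to -3.29). The others were Klrk1 (-2.65), Il2ra (-2.54), Atp1b1 (-2.49), Sesn1 (-2.26), St8sia6 (-2.17) and Klrd1 (-2.14). Klrk1 and Klrd1 encode receptors of NK and NKT cells, and with the WT side limited to named CD4 T cells their ratios were -1.29 and -0.44.

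**Figure D2:**
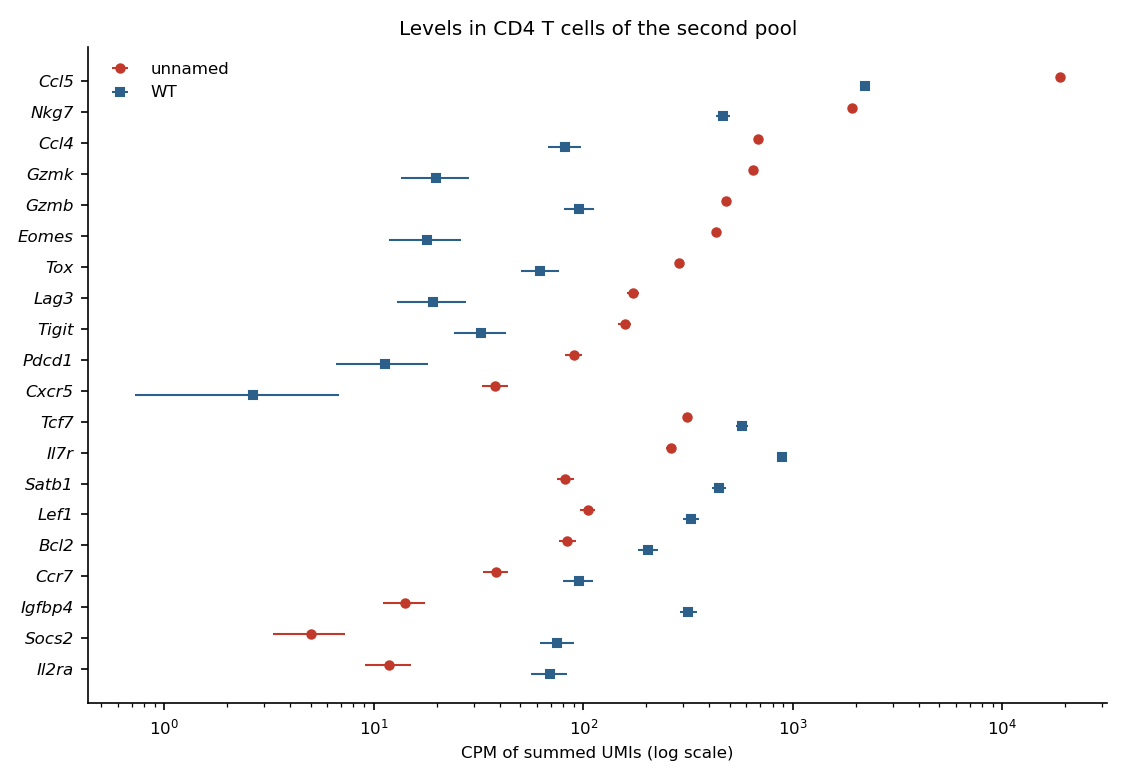
Level of 20 named genes in CD4 T cells, in counts per 1000000 summed UMIs on a log axis, for the unnamed set (circles, 1732 cells) and the WT set (squares, 507 cells), with exact 95% Poisson intervals as bars. Genes from Ccl5 to Cxcr5 are higher in unnamed cells, and those from Tcf7 to Il2ra are higher in WT cells.

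Genes were then grouped into lists by role, and each list is described over its members with at least 20 UMIs. Over all 10276 such genes the median log2 ratio was 0.03, with 14.1% higher and 10.4% lower by more than 1.5-fold. Of 17 cytotoxic genes, 10 were higher and 3 lower, with a median of 1.2. Cst7 (2.73), Prf1, the pore protein of killer cells (2.53), the granule protease gene Gzmb (2.33), Nkg7 (2.04) and Runx3, a factor of the cytotoxic lineage (1.2), were higher in unnamed cells. Ccl5 reached 18857 CPM against 2203 CPM. Gzma (0.27, -0.02 to 0.57) had an interval that included 0. In B cells of the library, 7 of 14 cytotoxic genes were higher and 2 lower with a median of 0.56, where 7.72% of all genes with at least 20 UMIs were higher and 6.3% lower. Of the 12 highest genes of CD4 T cells, 8 were past 1.5-fold in B cells too, counted without a minimum of UMIs. Among them were Ccl3 (1.87), Ccl4 (1.03) and Pdcd1 (1.06, -0.54 to 2.80, on 10 and 6 UMIs). The B cell intervals of Pdcd1, Lag3 (0.59, -0.09 to 1.28) and Baiap3 (0.65, -0.06 to 1.36) included 0. Gzmk was 0.45 (-0.18 to 1.08) in B cells. The lower members in CD4 T cells were the receptor genes Klrk1, Klrd1 and Klrc1, the last at 0.25 (-0.97 to 1.77) against named WT CD4 T cells.

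Shares of cells gave the same picture at equal depth. With every cell thinned to 1000 UMIs, 42.7% of unnamed and 1.97% of WT cells held a Gzmk UMI, against 1.51% and 1.37% of unnamed and WT B cells. Eomes was held by 31.2% and 1.58%, against 1.61% and 1.5% of B cells. The WT shares of both genes were thus near the level of B cells, which should lack them, and no difference from that level was read. Of 16 WT cells with an Eomes UMI, 4 also held Gzmk (7.27% to 52.4%), against 4.07% of the other WT cells. Without thinning the shares were 61.8% and 4.73% for Gzmk and 52.5% and 3.16% for Eomes. Gzmb was held by 26.9% and 7.10% and Ccl5 by 79.3% and 48.7%, with Ccl5 also found in 20.8% of unnamed B cells. In a stricter set chosen after the data were seen, with CD4 antibody at or above and CD8β antibody at or under the WT median, 164 unnamed and 107 WT cells remained. There Gzmk was held by 23.8% and 2.80%.

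**Figure D3:**
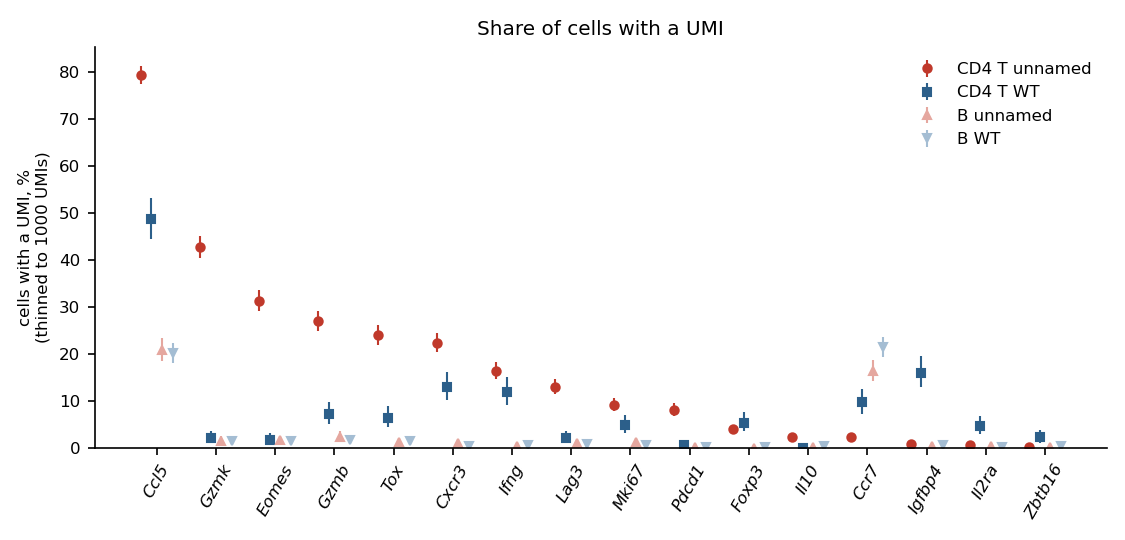
Percent of cells with at least 1 UMI of each gene after thinning to 1000 UMIs per cell, for unnamed and WT CD4 T cells and for unnamed and WT B cells of the same library, with exact 95% binomial intervals as bars. Gzmk was held by 42.7% of unnamed CD4 T cells and at most 1.97% of cells in the other 3 sets, while Igfbp4 was held by 16.0% of WT CD4 T cells.

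Within the unnamed set, Gzmk and Eomes were found in the same cells. A Gzmk UMI was present in 760 of 910 cells with Eomes (83.5%, 80.9% to 85.9%) and in 310 of 822 cells without (37.7%, 34.4% to 41.1%). Lag3 was found in 29.1% of cells with Eomes and 19.7% without, Tox in 48.2% and 37.0%, Cxcr5 in 13.3% and 5.23%, and Il10 in 8.13% and 3.53%. Foxp3 went the other way, in 1.21% of cells with Eomes and 11.8% without. Gzmk in turn was found in 9 of 108 Foxp3+ cells (8.33%) and in 65.3% of the other unnamed cells. Cells with Eomes had a median of 83 CD4 antibody counts, against 142.5 in unnamed cells without it, and a median CD8β count of 5 in both. Eomes cells without Foxp3 were 51.9% of the unnamed set (899 cells) and 2.56% of the WT set (13 cells). Even in unnamed cells with neither gene, 42.1% held Gzmk, against 4.44% of such WT cells. These pairs of genes come from the same cells, so deeper cells hold more of each, and median depth was 2543 UMIs in cells with Eomes and no Foxp3 and 2380 in cells with neither.

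**Figure D4:**
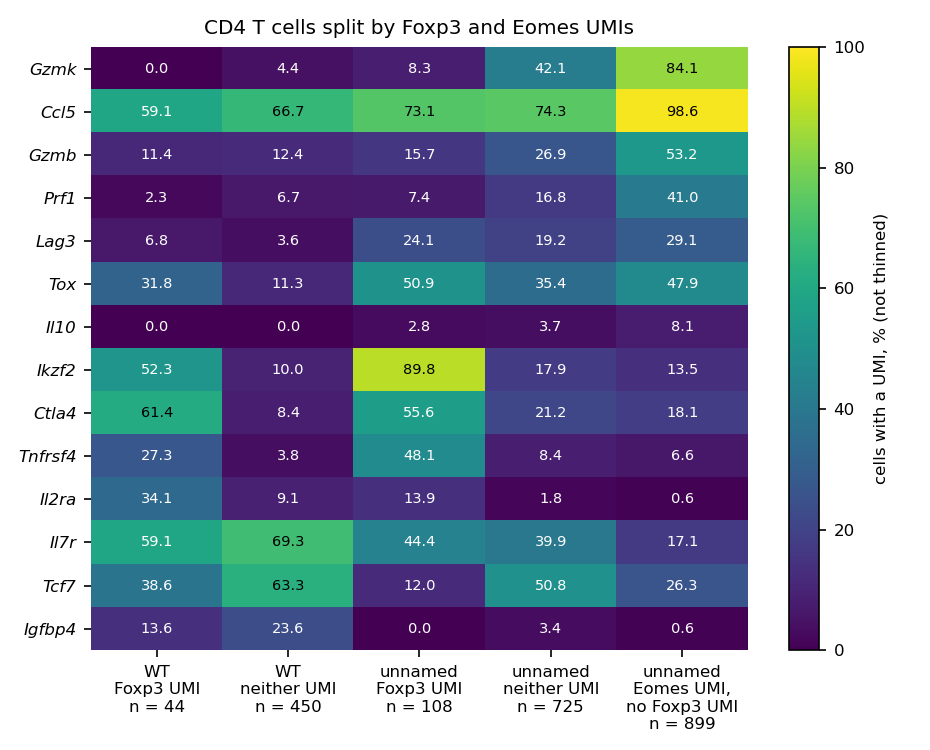
Percent of cells with a UMI of each gene (colour and number, not thinned) in CD4 T cells split by Foxp3 and Eomes UMIs, with the number of cells under each column. The 13 WT cells with Eomes and no Foxp3 are left out. Gzmk, Gzmb and Prf1 are highest in unnamed cells with Eomes, and Ikzf2 in unnamed cells with Foxp3.

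Of 12 inhibitory receptor genes, 5 were higher in unnamed cells and 0 lower, with a median of 0.54. Against named WT CD4 T cells 8 were higher and 1 lower with a median of 1.46, where 23.1% of all genes were higher and 11.9% lower. The median was 1.32 in the stricter antibody set and 0.35 with at least 2 Cd4 UMIs per cell. Lag3 stood at 172.6 CPM against 19.2 CPM, Pdcd1, which encodes PD-1, at 89.9 against 11.3 CPM and Havcr2, which encodes TIM-3, at 61.0 against 8.62 CPM. Tigit had a log2 ratio of 2.27 (1.86 to 2.72). Ctla4 was 0.53 (0.23 to 0.83) and did not reach 1.5-fold, and Cd160 was -0.39 (-0.73 to -0.05). Of 15 follicular helper genes, 10 were higher and 1 lower, with a median of 0.88. Cxcr5, the receptor that leads cells into B cell follicles, had 205 UMIs in 164 unnamed cells and 4 UMIs in 4 WT cells (3.84, 2.46 to 5.73). Tox2 (2.56), Tox (2.20) and Sh2d1a (1.22), which encodes the adaptor SAP, were also higher, and Bcl6, the factor that defines follicular helper cells, was 0.70 (0.02 to 1.44). Tox and Tox2 are also high in chronically stimulated cytotoxic cells, and Pdcd1 belongs to both lists. Il10, an anti-inflammatory cytokine gene, had 180 UMIs in 103 unnamed cells and 0 in WT cells. It was 16.7-fold higher when the WT level is put at its floor of 3 UMIs.

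Regulatory T cell genes were described next, since IL-2Rα sustains these cells. Foxp3 had 395 UMIs in 108 unnamed cells and 133 UMIs in 44 WT cells, a log2 ratio of -0.27 (-0.56 to 0.02). Thinned, 3.87% of unnamed cells (3.01% to 4.89%) and 5.33% of WT cells (3.54% to 7.65%) held it. The 2 intervals overlap, though the WT share lies above the unnamed interval. The WT share is over all WT members, of whom 61.3% were named CD4 T, and was not taken over those alone. In the stricter antibody set, of 164 unnamed and 107 WT cells, the shares were 5.49% and 3.74%. No interval was taken there, so no change of order was read. Of 23 regulatory genes, 9 were higher and 1 lower, with a median of 0.44. The higher members were led by Il10, Tigit, Entpd1 (2.20) and Ccr8 (2.19, on 49 and 3 UMIs), and several of these are shared with effector cells. Tnfrsf9, which encodes 4-1BB, was 1.79. Nt5e, which encodes CD73, was lower (-1.15, -1.58 to -0.72). Against named WT CD4 T cells alone the median was 0.05, with 7 members higher and 5 lower, where 23.1% of all genes were higher and 11.9% lower. In CD8 T cells of the library, 10 of 22 regulatory genes were higher and 2 lower, with a median of 0.40. Of all genes with at least 20 UMIs in CD8 T cells, 17.5% were higher and 10.1% lower.

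Cells with a Foxp3 UMI were then compared among themselves, 108 unnamed with 472476 UMIs and 44 WT with 153983 UMIs. Il2ra stood at 86.8 CPM in unnamed and 279.3 CPM in WT Foxp3+ cells, a log2 ratio of -1.69 (-2.34 to -1.03), and was found in 13.9% and 34.1% of them. Ikzf2, which encodes Helios and marks regulatory cells, was at 1084 and 480.6 CPM (1.17, 0.82 to 1.54). The costimulatory receptor genes Tnfrsf18 (1.22, 0.68 to 1.80), Tnfrsf4 (1.29, 0.53 to 2.14) and Tnfrsf9 (2.38, 1.1 to 4.04) were higher as well, and Ccr8 had 37 UMIs against 0. Il2rb, the β chain of the IL-2 receptor, stood at 1158 and 604.0 CPM (0.94, 0.62 to 1.27). Of the regulatory list, Ctla4 (-0.67, -1.14 to -0.18) and Nrp1 (-1.01, -1.75 to -0.26) were lower in unnamed Foxp3+ cells. Il7r (-1.15), Pim1 (-1.09), Tcf7 (-1.93) and Ccr7 (-2.90) were lower as well. Socs2 had 1 UMI against 21, and Igfbp4 0 against 34. With 44 WT cells these ratios rest on few molecules.

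Of 24 genes of the IL-2 receptor family and STAT5 signalling, 2 were higher and 9 lower in unnamed cells, with a median of -0.19. After Socs2 and Il2ra, the lower members included Il7r, the IL-7 receptor (-1.76, -1.87 to -1.65), Myc (-1.56), Il4ra (-1.53), the survival gene Bcl2 (-1.28, -1.49 to -1.07), the kinase gene Pim1 (-0.99) and Socs1 (-0.61). Cish, another target of STAT5, was -0.52 and did not reach 1.5-fold. The other receptor chains and the factors themselves were near 0, with Il2rb at -0.16, Il2rg at -0.23, Stat5a at -0.12 and Stat5b at -0.21. Socs3 was higher (1.17, 0.65 to 1.73). Il2rb, also a gene of NKT cells, was 1.11 with the WT side limited to named CD4 T cells. Il7r marks naive and memory cells and was in the naive list too.

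Genes of naive and recirculating cells were then described. All 20 members were below 0 and 18 were lower by more than 1.5-fold, with a median of -1.32, against 10.4% lower over all genes. Apart from Igfbp4, Dapl1, Satb1 and Bach2, Actn1 was at -1.78 (-1.98 to -1.58), Il7r at -1.76 and Lef1, a factor of naive cells, at -1.64 (-1.82 to -1.46). Ccr7, the receptor for entry into lymph nodes, had 207 UMIs in 112 unnamed and 143 UMIs in 98 WT cells (-1.31, -1.62 to -0.99). Tcf7 stood at 314.1 CPM against 573.2 CPM (-0.87) and Klf2 at -0.34 (-0.48 to -0.21). Thinned, Igfbp4 was held by 0.751% of unnamed and 16.0% of WT cells and Ccr7 by 2.31% and 9.66%. B cells held Ccr7 in 16.3% and 21.4% of cells, so it is no gene of T cells alone. The median was -1.84 against named WT CD4 T cells, where 11.9% of all genes were lower and 23.1% higher, and -1.06 in the stricter antibody set. Against the named cells 19 members were lower and 1 was higher by more than 1.5-fold. That one was Ccr9, a gut homing receptor named after its values were seen, with 139 UMIs in unnamed and 115 in WT cells (-1.57, -1.94 to -1.20) but 4 in named WT CD4 T cells (2.40, 1.02 to 4.30).

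**Figure D5:**
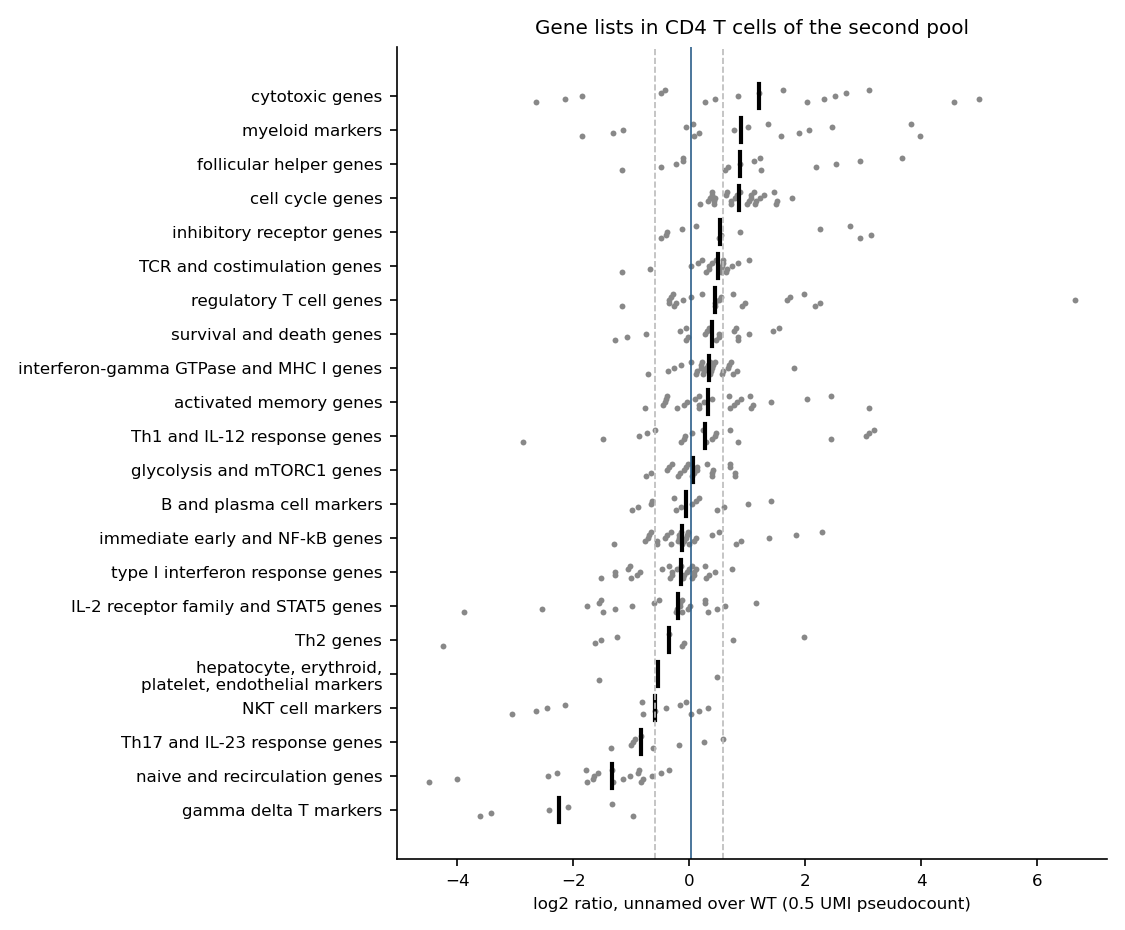
Log2 ratio of unnamed over WT CD4 T cells for each gene (points) of 22 lists, with 0.5 UMI added to each count, for genes with at least 20 UMIs over both sets. Black bars are list medians, the solid line the median of all 10276 genes (0.03) and dashed lines 1.5-fold. Cytotoxic genes have the highest median (1.2), naive and recirculation genes stand at -1.32 and γδ T markers lowest at -2.25; the point at 6.65 is Il10.

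Of 26 activated memory genes, 12 were higher and 1 lower, with a median of 0.32. Prdm1, which encodes Blimp-1, had a log2 ratio of 1.42. Cxcr3, a Th1 chemokine receptor, was 0.70 (0.50 to 0.90) and was held by 22.3% of unnamed and 12.8% of WT cells after thinning. Cxcr6, a receptor of liver-resident T and NKT cells, was lower (-0.77), but 0.61 (0.28 to 0.97) against named WT CD4 T cells. Of 20 Th1 and IL-12 response genes, 6 were higher and 5 lower, with a median of 0.27. The higher members were led by the chemokine genes. Ifng was 0.46 (0.24 to 0.68) and was held by 16.3% and 11.8% of cells. Tbx21, which encodes T-bet, was -0.73 (-1.05 to -0.41), and Il12rb2, a chain of the IL-12 receptor, had 16 UMIs against 33 (-2.89, -3.85 to -1.99). Both turned with named WT CD4 T cells, to 0.72 (0.11 to 1.39) and, on 1 WT UMI, 1.28 (-1.40 to 6.68). Il12rb1 (0.41, -0.06 to 0.92) and Stat4 (-0.13, -0.40 to 0.14) had intervals that included 0.

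Cytokine genes of Th17 and Th2 cells had few UMIs. Of 9 Th17 and IL-23 response genes, 0 were higher and 6 lower, with a median of -0.83. Il17f had 0 UMIs in unnamed cells and 19 UMIs in 7 WT cells, 22.7-fold higher in WT with the unnamed floor of 3 UMIs. Il17a had 2 and 16 UMIs. These counts rest on 7 WT cells each, and their split by cell name is not given here. Of all WT members, 61.3% were named CD4 T. Ccr6 was -1.01 (-1.49 to -0.51), while the factor genes Rora (0.25) and Stat3 (0.58) were not lower. Of 9 Th2 genes, 2 were higher and 4 lower, with a median of -0.34. Il4 had 6 UMIs in unnamed and 34 UMIs in 28 WT cells (-4.35, -5.89 to -3.08). Named WT CD4 T cells held 1 of these UMIs (-0.13, -3.17 to 5.39), so its WT molecules came mostly from cells under other names. Gata3, the Th2 factor, was -0.34 (-0.52 to -0.17).

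Genes that answer to interferons were looked at by type. Of 28 interferon-γ GTPase and MHC class I genes, 7 were higher and 1 lower, with a median of 0.34. Among the higher members were the serpin gene Serpina3g (1.82), Nlrc5, the activator of MHC class I (0.83), Tap1 (0.77), which loads peptides, and the immunoproteasome gene Psmb8 (0.67). B cells of the library, which share the split into unnamed and WT, had 19 of 27 of these genes higher, again against 7.72% of all genes, and a median of 0.90. Less the B cell ratio, Serpina3g, Nlrc5 and Tap1 were at -0.16, -0.22 and -0.13. Of 29 type I interferon response genes, 1 was higher and 8 lower, with a median of -0.14. Against named WT CD4 T cells this turned to 11 higher and 3 lower with a median of 0.33. The interferon-γ list had 12 higher and 0 lower there, with a median of 0.56. Of all genes in that comparison, 23.1% were higher and 11.9% lower. Ifit3 was -1.28 (-1.83 to -0.72) and turned to 1.11 (-0.18 to 2.78) against named WT CD4 T cells, and 3 cells held 41.7% of its molecules in WT. Xaf1 was the higher member (0.75).

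All 28 cell cycle genes were above 0 and 20 were higher by more than 1.5-fold, with a median of 0.86. Cdk1 (1.79, 1.30 to 2.32), Ube2c (1.5), Top2a (1.15) and Mki67, which encodes Ki-67 (1.12), are genes of mitosis, while Pcna, a gene of DNA replication, was 0.19 (0.00 to 0.39). Mki67 was held by 9.06% of unnamed and 4.73% of WT cells after thinning, against 1.23% and 0.616% of B cells. The median was 0.50 from the thinned counts. It was 2.75 against named WT CD4 T cells, a limit by cell name that the unnamed side does not share. Of 20 T cell receptor and costimulation genes, 6 were higher and 2 lower (median 0.50), with Cd27 at 1.03 and the kinase gene Fyn at 0.85, and with Cd40lg, the ligand that helps B cells, lower (-1.16). Of 30 immediate early and NF-κB genes, 5 were higher and 5 lower (median -0.13), among them Nr4a2 (2.31), Nfkbia (-0.76) and Zfp36 (-0.71). Of 22 glycolysis and mTORC1 genes, 4 were higher and 2 lower (median 0.06), with Tpi1 (0.80), Gapdh (0.80) and Pkm (0.71) above. Of 20 survival and death genes, 7 were higher and 3 lower (median 0.40), with Bcl2l11, which encodes the death protein BIM, at -1.08.

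Markers of other cell types differed between the sets as well, and their part in the differences was not tested. Of 13 NKT markers, 0 were higher and 7 lower, and the list summed to 1123 CPM in unnamed and 1428 CPM in WT cells. Per cell, the median went the other way, at 767.0 and 576.7 per 1000000 UMIs, and the 95th percentile was 3255 and 5687. Zbtb16, the factor that defines NKT cells, had 17 UMIs in 13 unnamed and 40 UMIs in 31 WT cells (-3.08, -3.99 to -2.23), and Xcl1 was -0.80. All 6 γδ T markers were lower, summing to 48.1 and 224.2 CPM, among them Tcrg-C4 (-3.64) and Tcrg-C1 (-2.42), whose near-identical copies can share reads. Named WT CD4 T cells held 1 UMI of Xcl1 (ratio 5.13, 2.64 to 10.4) and 5 of Tcrg-C1 (0.89, -0.41 to 2.57). They held 0 of Siglech, a gene of plasmacytoid dendritic cells that was 5.43-fold higher in unnamed cells with the floor of 3 UMIs. Against them the medians were 1.05 over the 10 NKT markers, 0.22 over the 5 γδ T markers and 1.37 over the 14 B and plasma cell markers with at least 20 UMIs in that comparison. Over the 16 myeloid markers with at least 20 UMIs in the main comparison, the median against them was 2.72. Of these, 15 were higher and 0 lower, where 23.1% of all genes were higher and 11.9% lower. B and plasma cell markers summed to 1671 and 1740 CPM, against 65447 and 54724 CPM in B cells, with Igkc at 1.42 and Ighm at -0.99. Myeloid markers summed to 2919 and 1445 CPM, with Lyz2 at 1.91, S100a8 at 2.47, S100a9 at 2.06 and Siglech at -1.86, and 5 of the 20 were at 0 in WT cells. Over 6 neutrophil genes the level was 3267 against 491.0 CPM, and 93.1% of the unnamed molecules lay in 20 cells. Without CD4 T cells holding such transcripts S100a8 was -0.072. The cytotoxic median was then 1.25, the naive median -1.37 and the cell cycle median 0.67. Hepatocyte, erythroid, platelet and endothelial markers summed to 65.1 and 116.1 CPM, with 4 and 13 of 18 at 0.

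The antibody panel measured 49 surface proteins in the same cells, given as shares of all antibody counts. CD90.2 alone made up 22.5% of unnamed and 36.3% of WT counts, and a lower share of 1 antibody raises the shares of the others. TIM-3 had the highest ratio (2.97, 2.79 to 3.15), with a median of 1 count per unnamed and 0 per WT cell. TIGIT was 1.78 (1.52 to 2.06), LAG-3 1.1 (1.00 to 1.21) and PD-1 1.05 (0.98 to 1.11), with PD-1 at a median of 4 and 3 counts. Their genes are Havcr2, Tigit, Lag3 and Pdcd1. Antibodies to proteins of other cell types were also above 0, under TIM-3 and TIGIT but around LAG-3 and PD-1, with CD16/CD32 at 1.53, CD8β at 1.34, CD172a at 1.28, CD138 at 1.11 and the erythroid protein TER-119 at 0.86. CD49d, an integrin chain of activated T cells, gave a median of 47 counts against 23 (1.11), and CD43 of 65 against 57 (0.77). CD90.2 was among the lower antibodies, with a median of 139 counts against 545 (-0.69), as were CD49a (-1.27) and IgD (-1.15), the latter at 2 and 8 counts. Median counts of TIM-3, TIGIT and LAG-3 were at most 1 per cell, and total antibody counts per cell were lower in unnamed cells. CD44, a protein of activated and memory cells, was 0.16 by share, but its median was 69 counts per unnamed and 124 per WT cell. With a gate fitted to both sets together, 49.2% of unnamed (46.9% to 51.6%) and 63.5% of WT cells (59.2% to 67.7%) were CD44 high. The gate was not applied to named WT CD4 T cells alone, and 25.6% of WT members were named NKT.

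The same ratios in other cells of the series are given side by side. CD8 T cells of this library (6833 unnamed and 383 WT) share the capture and the mice with the CD4 T cells, so the comparisons are not independent. Their log2 ratios were 2.26 for Gzmk, 2.01 for Eomes, 1.97 for Ccl5, 1.64 for Lag3, 1.85 for Pdcd1 and -2.41 for Igfbp4. By share of antibody counts, TIM-3 stood there at 3.20, TIGIT at 1.53, LAG-3 at 1.46 and PD-1 at 1.01. In B cells these 4 antibodies were at 0.97, 0.44, 0.27 and 0.15. The list medians in CD8 T cells were 1.11 for cytotoxic, 0.88 for inhibitory receptor, -0.71 for naive and 0.14 for cell cycle genes, with 0 of 28 cell cycle genes past 1.5-fold, where 17.5% of all genes with at least 20 UMIs were higher and 10.1% lower. In the first library the same rule found 336 unnamed and 353 TG CD4 T cells, where TG mice carry a dominant negative TGF-β receptor in T cells and the unnamed cells are mostly of IFN-γ ARE-Del-/- mice. There the unnamed over TG ratio was 2.30 for Eomes, 0.91 for Gzmk, -0.61 for Ccl5 and 2.70 for Igfbp4, and the medians were -0.43 for cytotoxic and 0.44 for naive genes. With 1 library each, the difference between these sets could not be tested.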

How the data were processed

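Immune cells carrying CD45 were captured on BD Rhapsody with 49 tagged antibodies and sample tags. The deposited tables hold UMI counts per cell and gene or antibody, made by the authors with the BD WTA Multiplex Rhapsody Analysis Pipeline 1.9 per the file headers, with STAR, the mm10 build and distribution-based error correction, which removes molecules seen too rarely and so trims low values. The deposited cell table gives a genotype and a cell type name for part of the cells; filtered expression tables in it were not used here. All sample columns were matched.

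Counts of the chosen cells were summed per set and scaled to their totals. Called means past 1.5-fold in either direction, among genes with at least 100 UMIs over both sets; list members needed 20 UMIs, and list medians add 0.5 UMI to each count. The members of the comparison and all gene lists were chosen with earlier results of these data known. Genes named were 2 to 6 per list, led by those past 1.5-fold, and the 12 highest and 12 lowest ratios of genes that had 10 UMIs or more in each set whose direction held under every scaling and whose UMIs did not lie over 50% in 3 cells; receptor segments, sex genes, mitochondrial genes and the 6 genes of the rule stayed out. Cells with at least 2 Cd79a UMIs and no Cd3e or Klrb1c served as B cells, whose transcripts give the level of free RNA. CD8 T cells held Cd8a, Cd8b1 and Cd3e and none of Cd4, Klrb1c and Cd79a. Thinning to 1000 UMIs left out no cell. CD44 high cells were the upper of 2 normal components fitted to centred log ratios. Doublets were called with Scrublet (scanpy 1.11.5) at an expected 5%, which marked 5.90% of unnamed and 4.23% of WT cells in the library, and 2.14% and 2.37% of the members; they were kept and left out in an alternative. Positions are those of GENCODE for GRCm38. Calculations used Python 3.11.15, numpy 2.4.6, scipy 1.17.1, scikit-learn 1.9.0, R 4.3.3 and edgeR 4.0.16 (TMM factors only), and were tested on simulated data. Other assays of the study were not analysed here. A few list members that the naming rule took, and the antibody with the lowest ratio, are not reported here.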

Additional observations from a re-analysis of the deposited data

Results flagged for a closer look

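Over all genes with at least 100 UMIs in each comparison, 3 stood past 1.5-fold in one direction in CD4 T cells and past it in the other in CD8 T cells of the same library, with both counting intervals clear of 1.5-fold. In CD4 T cells 7269 genes met this minimum. How many met it in both comparisons, or went the same way in both, is not given here. The 3 genes were chosen after their values were seen, and the difference between CD4 and CD8 T cells was not tested. Klre1, a receptor gene of NK cells, stood at 10.2 CPM in unnamed and 44.5 CPM in WT CD4 T cells, a log2 ratio of -2.13 (-2.67 to -1.59), and at 164.6 and 48.7 CPM in CD8 T cells, a ratio of 1.76. Tcrg-C2, a constant segment of the γ receptor chain whose near-identical copies can share reads, had a ratio of -2.09 in CD4 T cells, at 15.5 and 66.3 CPM, and of 1.40 in CD8 T cells. Gm36723 had ratios of -1.40 and 1.52. With the WT side limited to named CD4 T cells the ratios of Klre1, Tcrg-C2 and Gm36723 in CD4 T cells changed sign, to 0.74, 0.68 and 0.53, on 5, 8 and 8 WT UMIs and with intervals that included 0. That of Gm36723 was 0.50 in the stricter antibody set, on 8 and 3 UMIs.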

How the results depend on the processing

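No paired analysis was possible because both sets came from 1 library and no test was made. Among the alternatives, TMM factors and the limit to unnamed cells within the WT range of UMIs, genes and mitochondrial share changed the sign of no named gene. The alternatives with a CD4 and CD8β antibody level set by the WT median, without neutrophil transcripts and without shared cell indices were added after the data were seen.

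The Il2ra ratio moved to -3.50 thinned, -1.84 with the WT side limited to named CD4 T cells and -3.44 with equal weight for each cell. Genes past 1.5-fold numbered 437 higher and 202 lower of 3865 thinned, 1321 higher of 6936 against named WT CD4 T cells, 155 and 76 of 1541 in the antibody set, 1953 and 2244 without a minimum count, and 301 and 120 at 2-fold. The naive median was -1.57 thinned, -1.84 against named cells, -1.06 in the antibody set and -1.11 less the B cell ratio. The inhibitory receptor median was 1.46 and 1.32 in the named and antibody sets and 0.35 with at least 2 Cd4 UMIs. The cell cycle median was 0.50 thinned and 2.75 against named cells. Without thinning, Foxp3 was held by 6.24% of unnamed and 8.68% of WT cells and Gzmk by 61.8% and 4.73%. In the antibody set the unnamed shares were 5.49% and 23.8%, and the WT share with Foxp3 was 3.74%. These shares, of 164 unnamed and 107 WT cells, had no interval taken, so no change of order was read for Foxp3. CD44 above the 95th percentile of B cells gave 9.64% and 16.8%.

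Signs turned as follows. Against named WT CD4 T cells the ratio was 0.61 for Cxcr6, 0.72 for Tbx21, 1.28 for Il12rb2, 1.11 for Ifit3, 5.13 for Xcl1, 0.89 for Tcrg-C1, 2.44 for Siglech at the floor of 3 UMIs, 2.40 for Ccr9, 0.25 for Klrc1, 0.74 for Klre1, 0.68 for Tcrg-C2 and 0.53 for Gm36723, and the median 1.05 for 10 NKT markers, 0.22 for 5 γδ T markers, 1.37 for 14 B and plasma cell markers and 0.33 for 29 type I interferon genes, those with at least 20 UMIs in that comparison. NKT markers were at 1.56 in the antibody set. Less the B cell ratio, Serpina3g was -0.16, Nlrc5 -0.22, Tap1 -0.13, Lyz2 -0.95 and S100a9 -0.094. Without cells with B or myeloid transcripts Ltf was -0.23, Lyz2 -0.35 and S100a8 -0.024, and without those with neutrophil transcripts Ltf was -0.54, S100a8 -0.072 and S100a9 -0.048. Gm36723 was 0.50 in the antibody set. No ratio was taken where both sets held at most 3 UMIs, or where 1 held none and the other stood under its floor. The myeloid median was -0.0084 thinned, -0.011 at low NK1.1 antibody, -0.027 with at least 2 Cd4 UMIs, -0.59 without B or myeloid transcripts and -0.13 without neutrophil ones. The causes were not tested.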
